A study of Mus musculus with 9 samples.

Results

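The 9 miRNAs described here are the mature products of the miR-17~92 and miR-106b~25 clusters that are best known as guide strands. They were taken by name from the 1881 mouse miRNAs on the array, and each name was present with 2 probes of 15 spots each. Of the 9, 6 come from miR-17~92 (mmu-miR-17-5p, mmu-miR-18a-5p, mmu-miR-19a-3p, mmu-miR-20a-5p, mmu-miR-19b-3p and mmu-miR-92a-3p) and 3 from miR-106b~25 (mmu-miR-106b-5p, mmu-miR-93-5p and mmu-miR-25-3p). The prefix mmu, for mouse, is left out from here on. The study asked how alpha particles change miRNA levels in murine osteoblastic cells. RNA was hybridised to 9 one-colour Agilent miRNA arrays, 3 for each dose of 0, 0.5 and 1 Gy.

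The cells of all 3 groups were grown from bone marrow, taken from C57BL/6 males at 8 weeks of age. They had 7 days of culture followed by 7 days in medium with beta-glycerol phosphate, ascorbic acid phosphate and dexamethasone, which drives osteoblast differentiation. Alpha particles were given at 0.22 Gy per minute to a total of 0.5 Gy in one group and 1 Gy in another, and the control group received 0 Gy. Whether the 3 samples that make up a dose stem from different mice or culture dishes is not stated by the labels. The p-values therefore describe the spread among these samples, and that spread may be technical only. How long after irradiation the RNA was taken is also unstated in the labels. A marrow culture of this kind can hold cells other than osteoblasts, and in bulk RNA fewer cells of a type and less RNA per cell cannot be told apart.

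A miRNA cluster is transcribed as a single primary RNA, from which Drosha and then Dicer cut the individual mature miRNAs. The miR-17~92 transcript comes from the host gene Mir17hg and is activated by Myc and E2F factors, while the miR-106b~25 hairpins lie in an intron of Mcm7, a gene of the replicative helicase, and follow its transcription. Both clusters are known for promoting proliferation and survival through targets such as Bcl2l11 (Bim) and Cdkn1a (p21), and loss of miR-17~92 causes skeletal defects in mice and humans.

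The mature sequences are shown because a seed, bases 2 to 8, decides which mRNAs a miRNA can pair with. Cluster mates can differ in seed, and members of different clusters can share one. Sequences are those of RefSeq (GRCm38.p6), written 5′ to 3′ with the seed in capitals, and all 9 members were matched by name. The miR-17~92 hairpins span chr14:115043671-115044506 on the plus strand (836 bases), and the miR-106b~25 hairpins span chr5:138165321-138165818 on the minus strand (498 bases). The first group has the seed AAAGUGC and holds 4 members from both clusters, which are known to target Cdkn1a.
miR-17-5p: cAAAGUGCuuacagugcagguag
miR-20a-5p: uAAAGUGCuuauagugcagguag
miR-106b-5p: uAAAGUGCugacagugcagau
miR-93-5p: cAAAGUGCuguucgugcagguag
The seed of miR-18a-5p, AAGGUGC, is carried by no other member.
miR-18a-5p: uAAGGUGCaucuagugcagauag
The GUGCAAA seed belongs to the miR-19 pair.
miR-19a-3p: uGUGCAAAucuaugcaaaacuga
miR-19b-3p: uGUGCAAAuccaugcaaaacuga
The AUUGCAC seed belongs to the last hairpin of each cluster.
miR-92a-3p: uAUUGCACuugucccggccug
miR-25-3p: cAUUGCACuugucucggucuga

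Counted position by position from the 5′ end, miR-17-5p and miR-20a-5p are identical at 21 of 23 bases, miR-19a-3p and miR-19b-3p at 22 of 23, and miR-92a-3p and miR-25-3p at 18 of 21. Probes for such close pairs may share signal, and how far they do was not tested. RefSeq places miR-92a-3p at chr14:115044476-115044496 and again, with the same mature sequence, at chrX:52741854-52741874 on the minus strand. miR-19b-3p likewise has a second copy, at chrX:52741991-52742013. The array cannot tell apart the products of such copies.

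Of the 9 members, 2 were detected on any array: miR-92a-3p on 8 of 9 arrays and miR-93-5p on 5. Detection here means that, for any of the miRNA's probes, at least 50% of the spots carried the scanner's mark for well above background. By the same criterion 446 of the 1881 miRNAs (23.7%) were detected on any array and 28 on all 9. The 5 cluster mates that share the miR-17~92 transcript with miR-92a-3p were detected on no array.

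The arrays differed in background. The additive error that the scanner software estimates reached 19.4 intensity units on the first 0.5 Gy array and 11.2 on the first 1 Gy array, against 1.60 to 2.83 on the other 7. The lowest mean intensity of a detected probe was 55.5 or more on those 2 arrays and 7.52 to 13.8 on the others. At most 234 miRNAs were detected on a single array. Arrays 1 and 3 of every dose shared a slide, array 2 of 0.5 Gy and of 1 Gy shared another, and array 2 of 0 Gy was on a slide of its own.

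The first 5 guides of miR-17~92 along the transcript gave no signal above background. These were miR-17-5p and miR-20a-5p, miR-18a-5p, known for targeting Ctgf, and the miR-19 pair, miR-19a-3p and miR-19b-3p. miR-106b-5p of the other cluster behaved likewise. None of the spots of these 6 miRNAs was marked as well above background on any array. Their 12 probes had mean background-subtracted intensities between -3.18 and 2.07 units on the 7 arrays of lower background, and between -30.1 and -6.50 on the 2 arrays of high background. Their level is therefore known only as below what these arrays resolve, and no fold change was computed for them.

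**Figure D1:**
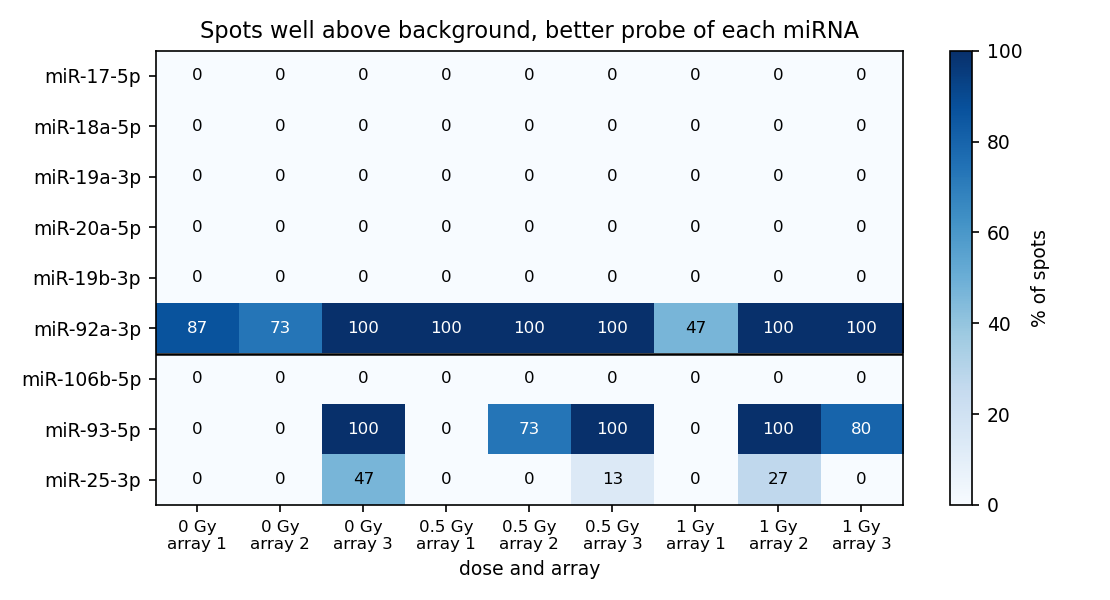
Detection of the 9 cluster members (rows, grouped by cluster) on the 9 arrays (columns, grouped by alpha dose), with the best probe's share of spots well above background in percent. The miR-92a-3p row reaches at least 46.7% on every array and miR-93-5p is filled on 5, while 6 rows hold 0 throughout.

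miR-92a-3p, the last miRNA of its cluster and known in endothelial cells as an inhibitor of Itga5 and angiogenesis, was detected at all 3 doses. Levels here are log2 of the scaled signal, that is the summed probe intensity after each array was scaled to the same 75th percentile of commonly detected probes, with a floor of 3.52. At 0 Gy the log2 levels were 3.71, 3.84 and 5.49 on arrays 1, 2 and 3. At 0.5 Gy they were 8.04, 5.33 and 5.52. At 1 Gy they were 6.93, 4.82 and 5.62, where the first is from an array on which 46.7% of the best probe's spots passed and the miRNA did not count as detected.

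The highest value of each irradiated group came from its high-background array, and the 2 lowest values of all were 0 Gy arrays 1 and 2. The third 0 Gy array, at 5.49, lay among the lower-background irradiated arrays, which ranged from 4.82 to 5.62. Each pair of doses overlapped. Among the 134 miRNAs that were tested for dose differences, separation of the arrays was counted in the upward direction only. All 3 arrays lay above those of the other dose for 0 (0%) at 0.5 against 0 Gy. This held for 3 (2.24%) at 1 against 0 Gy and 1 (0.746%) at 1 against 0.5 Gy. Separation downward was not counted, although 96 of 134 had a lower mean at 0.5 Gy and 100 at 1 Gy than at 0 Gy. Mean log2 levels were 4.35 ± 0.99 in controls, 6.30 ± 1.52 after 0.5 Gy and 5.79 ± 1.06 after 1 Gy (SD, n = 3 each), and without array 1 of each dose they were 4.66, 5.42 and 5.22.

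No dose difference of miR-92a-3p passed the threshold of 0.05 after adjustment over 134 miRNAs. Those 134 were all that met the filter, which asked for detection on the 3 arrays of any dose. Against 0 Gy, its log2 level was 1.95 higher at 0.5 Gy (SE 0.86, limma unadjusted p = 0.0483, adjusted p = 0.561) and 1.44 higher at 1 Gy (SE 0.86, limma adjusted p = 0.539). Both irradiated doses together were 1.69 above 0 Gy (SE 0.75, limma unadjusted p = 0.0476, adjusted p = 0.446). The log2 difference of 1 Gy from 0.5 Gy was -0.51 (SE 0.86, limma adjusted p = 0.999), and without array 1 of 0.5 Gy it was 0.36 (limma adjusted p = 0.966).

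Of the 134 tested miRNAs, 0 were called (0%) in each of these 4 comparisons by limma. For 1 Gy against 0.5 Gy, a fit of those 6 arrays with replicate number as a block called 3 of the 40 miRNAs tested there (7.5%), and miR-92a-3p was not one of them (limma adjusted p = 0.568). At an unadjusted limma p under 0.05, 2 (1.49%) passed for 0.5 Gy, 4 (2.99%) for 1 Gy, 0 (0%) for 1 Gy against 0.5 Gy and 7 (5.22%) for both doses against 0 Gy. miR-92a-3p was among those of 0.5 Gy and of both doses, where it ranked 2 and 6 of 134 by p.

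How common its direction was depended on the set of miRNAs counted. Relative to 0 Gy, 38 of 134 (28.4%) had a higher mean at 0.5 Gy, 34 of 134 (25.4%) at 1 Gy and 37 of 134 (27.6%) over both doses, while 59 of 134 (44%) were higher at 1 Gy than at 0.5 Gy. The median log2 difference over all tested miRNAs was -0.47 at 0.5 Gy and -0.49 at 1 Gy, and miR-92a-3p stood 2.42 and 1.93 above it. Of the 134, only 40, miR-92a-3p among them, met the filter through an irradiated dose. The rest were included only because all 0 Gy arrays detected them. Selection through the controls can lower these shares and medians, and how far it did was not tested. Over the 446 miRNAs detected on any array, 279 had a higher mean at 0.5 Gy and 285 at 1 Gy than at 0 Gy. The median difference in that set was 0.84 at 0.5 Gy and 0.80 at 1 Gy, and miR-92a-3p stood 1.11 and 0.64 above. Without the 2 high-background arrays these medians were 0 and 0.07. Without array 1 of 0.5 Gy, its difference at 0.5 Gy was 1.08 (limma adjusted p = 0.988), without array 1 of 1 Gy its difference at 1 Gy was 0.87, and without array 1 of every dose it was 0.76 at 0.5 Gy and 0.55 at 1 Gy.

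**Figure D2:**
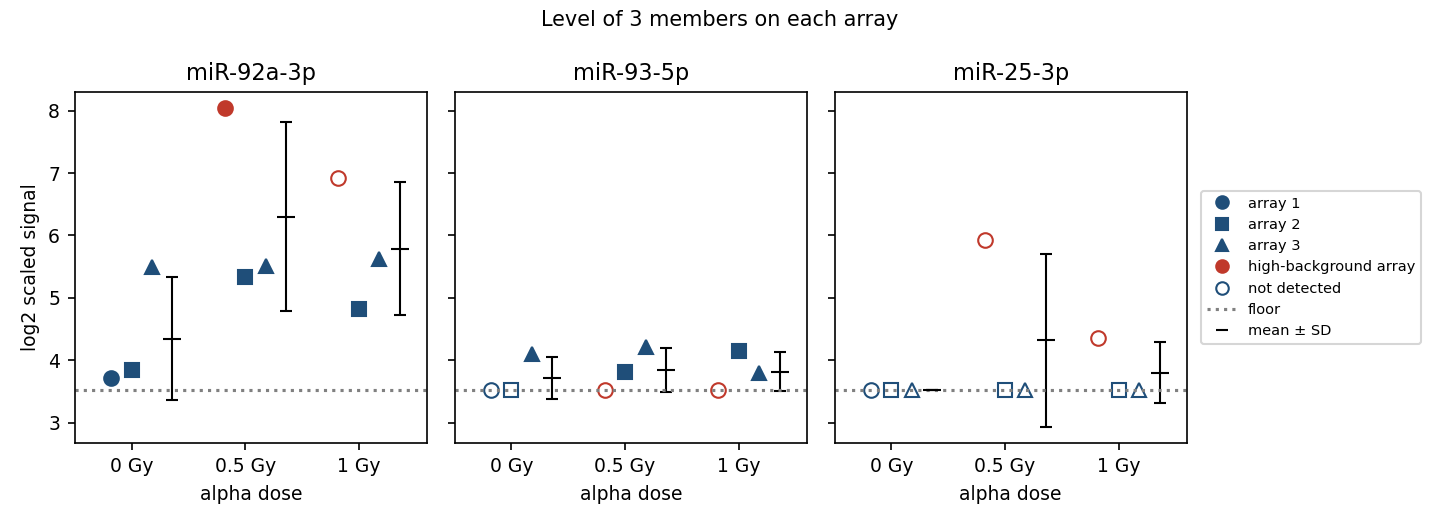
Log2 scaled signal of miR-92a-3p, miR-93-5p and miR-25-3p on each array by alpha dose, with the mean and SD of 3 arrays to the right of the points, open symbols where the miRNA was not detected, red for the 2 high-background arrays and a dotted line at the floor of 3.52. The miR-92a-3p points of the 3 doses overlap, and its highest 2 points are the red ones.

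Both probes of miR-92a-3p had their lowest signal on array 2 of 0 Gy and their highest on array 1 of 0.5 Gy. Before scaling, one probe had mean intensities of 16.8, 9.53 and 33.9 units at 0 Gy, 129, 25.3 and 34.5 for the 0.5 Gy arrays, and 57.4, 22.5 and 40.5 for those of 1 Gy. The other probe had 8.45, 3.53 and 7.63 units at 0 Gy, 95.3, 8.75 and 7.54 for the 0.5 Gy arrays, and 41.7, 7.51 and 12.2 for those of 1 Gy. The first of these probes was detected on 8 arrays and the second on 1, array 2 of 0.5 Gy.

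The spread of signal was read from 1580 miRNAs that were detected on none of the 7 lower-background arrays. Their scaled signals ran from -102 to 295.3 (5th to 95th percentile) on array 1 of 0.5 Gy, where miR-92a-3p had 264 and 111 of them (7.03%) lay above it. On array 1 of 1 Gy the 5th percentile was -65.6, miR-92a-3p had 122 scaled units, and 95 (6.01%) lay above it. On the other 7 arrays the 95th percentile was between 5.22 and 13.6, and 0 to 21 of the 1580 lay above miR-92a-3p. The miR-92a-3p values on the 2 high-background arrays thus lay inside the 5th to 95th percentile of these miRNAs. Some of the 1580 were detected on those 2 arrays, for example miR-92b-3p at 615 and 290. The range there therefore does not stand for undetected signal alone. On the other 7 arrays the choice of undetected miRNAs largely fixes that a detected one lies above them. Array 1 of 0 Gy, where miR-92a-3p had 13.1 scaled units, was the array with 21 above. Of the 134 tested miRNAs, 15 (11.2%) had their highest level on array 1 of 0.5 Gy. Only 40 of those 134 met the filter through an irradiated dose, so this share does not stand for all detected miRNAs.

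**Figure D3:**
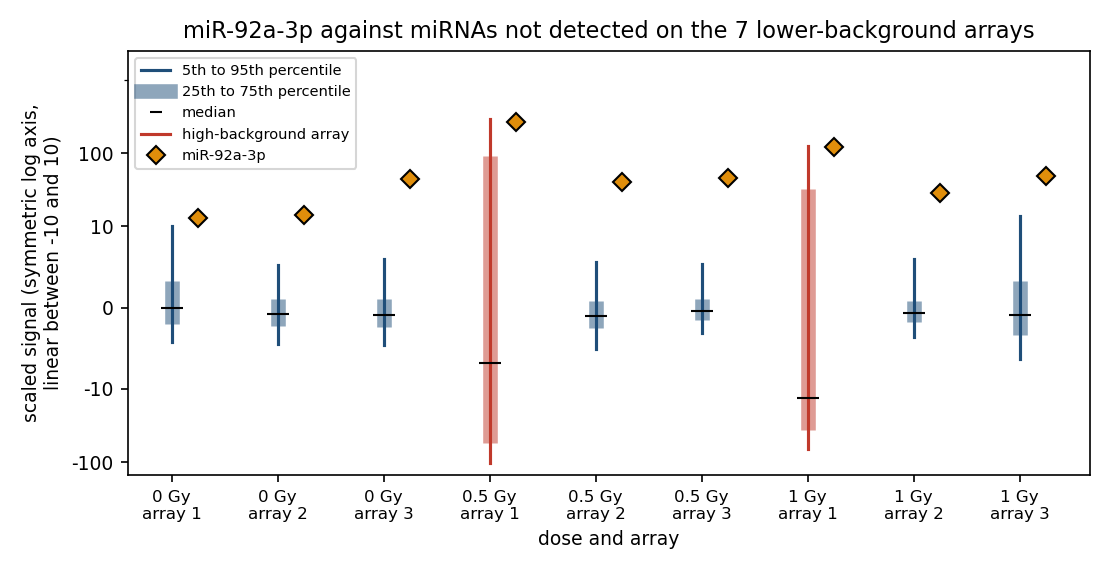
Scaled signal on each array of 1580 miRNAs that were detected on none of the 7 lower-background arrays (thin bars from the 5th to the 95th percentile, thick bars from the 25th to the 75th, ticks at the median, on a symmetric log axis) beside that of miR-92a-3p (diamonds). The thin bar reaches 295.3 on array 1 of 0.5 Gy and passes the miR-92a-3p point on array 1 of 1 Gy, while the other 7 end at 13.6 or below.

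miR-93-5p, a Cdkn1a-targeting guide that shares the AAAGUGC seed, was detected on 1 array at 0 Gy, 2 at 0.5 Gy and 2 at 1 Gy, and on none of the 2 high-background arrays. Its log2 level at 0 Gy was 4.10 on array 3 and at the floor on arrays 1 and 2. At 0.5 Gy it was at the floor on array 1 and had 3.81 and 4.22 on arrays 2 and 3. At 1 Gy it was at the floor on array 1 and had 4.14 and 3.79 on arrays 2 and 3.

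On the 5 arrays where it was detected, miR-93-5p lay between 3.79 and 4.22, not far above the floor of 3.52, and the levels of the 3 doses overlapped. It did not reach the filter for the 134 tested miRNAs. In the fit of all 446 miRNAs detected on any array, where 0 were called and 4 at 0.5 Gy and 5 at 1 Gy had an unadjusted limma p under 0.05, its log2 difference from 0 Gy was 0.14 at 0.5 Gy (SE 0.33, limma adjusted p = 0.780) and 0.10 at 1 Gy (SE 0.33, limma adjusted p = 0.854). Both differences lay below the medians of that fit. Without the 2 high-background arrays they were 0.30 and 0.25, which is above the medians, and under some other settings they changed sign.

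miR-25-3p, which shares the AUUGCAC seed with miR-92a-3p and is known for repressing Bcl2l11, did not count as detected on any array. One of its probes had mean intensities of 2.94, 1.47 and 7.81 units at 0 Gy, 30.2, 5.12 and 6.41 for the 0.5 Gy arrays, and 10.7, 7.05 and 6.49 for those of 1 Gy. The share of that probe's spots well above background was 46.7% on the third control array, 13.3% on the third 0.5 Gy array and 26.7% on the second 1 Gy array, and the scanner's own mark for a whole miRNA was set on those 3 arrays. Its log2 level was at the floor on all 7 lower-background arrays. The 2 levels above the floor, 5.92 at 0.5 Gy and 4.36 at 1 Gy, were both from high-background arrays and undetected.

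Within miR-106b~25 the 3 guides thus gave a detection on 5 arrays, an unsettled signal near the limit and none. Because no mate of miR-92a-3p in its own cluster was detected on any array, the ratio of miR-92a-3p to the products of its transcript could not be followed across doses.

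The 2 members detected on these arrays were those richest in G and C. The G + C content of the mature sequence was 57.1% in miR-92a-3p, 52.2% in miR-93-5p and 50% in miR-25-3p, and between 34.8% (miR-19a-3p) and 47.8% (miR-17-5p) in the other 6. Over the 1608 of 1881 miRNAs on the array with a RefSeq sequence, the share detected on any array was 9.09% (21 of 231) at up to 40% G + C, 16.8% (89 of 531) over 40 to 50%, 26.1% (115 of 441) over 50 to 60%, and 40.2% (163 of 405) above. On the 7 lower-background arrays the shares were 5.63%, 10.5%, 16.3% and 29.4%. Detection over the whole array thus rose with G + C, and its part in which members were detected was not tested.

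**Figure D4:**
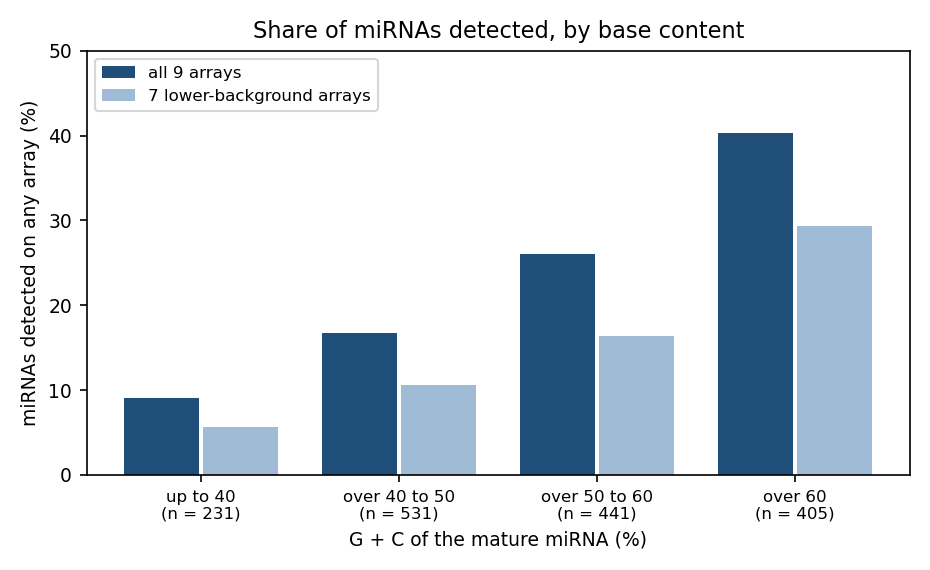
Share of miRNAs detected on any array (percent) in 4 classes of G + C content of the mature sequence, over all 9 arrays and over the 7 of lower background. The share over all arrays goes from 9.09% in the lowest class to 40.2% in the highest.

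Relatives of the members were counted by the same criterion. Over the array, 446 of 1881 miRNAs (23.7%) had a detection and 134 (7.12%) met the filter. Of 21 miRNAs listed as other arms of both clusters, products of the paralogous cluster on chromosome X that starts with miR-106a, or holders of the AUUGCAC seed elsewhere, 20 were on the array under the listed name, 3 had a detection and 0 met the filter. These 3 were miR-18a-3p, the passenger arm of the miR-18a hairpin, miR-18b-3p from the X cluster, and miR-92b-3p, which has the miR-92a-3p seed. miR-18a-3p and miR-92b-3p were detected on the 2 high-background arrays alone, with scaled signals of 520 and 219 for the first and of 615 and 290 for the second at 0.5 and 1 Gy. miR-18b-3p had 344 and 148 there and was also detected on array 3 of 1 Gy, at 20.7.

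Neither miR-18a-3p nor miR-92b-3p was thus detected on an array of lower background, and their G + C contents were 54.5% and 63.6%. On those arrays, 1 of the 20 relatives was detected, on 1 array. Of all 1881 miRNAs, 1580 were detected on none of the lower-background arrays.

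The miRNAs whose log2 levels were most like those of miR-92a-3p over the 9 arrays were miR-331-3p (Pearson r = 0.989), miR-193b-3p (0.979), miR-149-5p (0.907), miR-125a-5p (0.897) and miR-296-5p (0.884). The median r over the other 133 tested miRNAs was -0.667. Over the 7 lower-background arrays r was 0.982, 0.976, 0.699, 0.941 and 0.469 in the same order, and the median r was -0.521. On those arrays let-7b-5p (0.954) and miR-1949 (0.932) stood among the 5 most alike in place of miR-149-5p and miR-296-5p. Over all 9 arrays their r was 0.463 and -0.280. All these points share array, scaling and background, so the values describe the arrays and carry no p.

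The labelled cell type was set against marker miRNAs. Of 8 stromal and osteoblast-lineage markers 6 were detected on any array, among them miR-199a-3p, miR-214-3p and miR-125b-5p, while miR-143-3p and miR-145a-5p were not. Of 5 myeloid markers miR-223-3p and miR-342-3p were detected and miR-142a-3p, miR-142a-5p and miR-146a-5p were not. Of 3 lymphoid markers miR-181a-5p was detected, which is also found outside lymphocytes, and of the erythroid and platelet (3), endothelial (2) and epithelial (5) markers 0 were.

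The stromal markers were low on the same 0 Gy arrays as miR-92a-3p and miR-93-5p. Their summed scaled level at 0 Gy was 149, 363.4 and 1263 on arrays 1, 2 and 3, while it ranged from 649 to 1205 at 0.5 Gy and from 607 to 1189 at 1 Gy, the lowest of each irradiated dose on its high-background array. The markers differed among themselves: miR-125b-5p was higher on each irradiated array than on 0 Gy arrays 1 and 2, whereas miR-21a-5p and miR-22-3p were at the floor on the 2 high-background arrays as well. The summed level of the 5 myeloid markers was 57.3, 57.3 and 105 at 0 Gy, 78.5 to 165 at 0.5 Gy and 88.6 to 93.3 at 1 Gy. No myeloid marker was above the floor on 0 Gy arrays 1 and 2, and the value of 165 came from the high-background 0.5 Gy array, on which none of them was detected. The part of these array differences in the miR-92a-3p values was not tested.

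The size of the miR-92a-3p difference also moved with the way the arrays were made comparable. At 0.5 Gy it was 1.95 with the scaling used here, 0.68 when arrays were scaled on all probes (1.34 above the median difference of that fit) and 0.44 after quantile normalization (0.97 above). At 1 Gy the corresponding differences were 1.44, 0.20 (1.28 above) and 0.34 (0.93 above). The scaling used here multiplied array 1 of 0 Gy by 0.52 and the other arrays by 0.93 to 1.23. Without scaling the differences were 1.52 at 0.5 Gy (2.35 above) and 1.17 at 1 Gy (1.89 above). With slide as a block they were 2.18 and 1.67, and within slide 1, which holds arrays 1 and 3 of each dose, 2.18 and 1.67 too. No other slide held both 0 Gy and irradiated arrays, so both fits compare with 0 Gy within slide 1. That slide holds both high-background arrays. All these differences were above 0 and none passed the threshold. Over all alternatives tried, limma adjusted p was from 0.361 to 0.988 at 0.5 Gy and from 0.372 to 0.927 at 1 Gy.

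**Figure D5:**
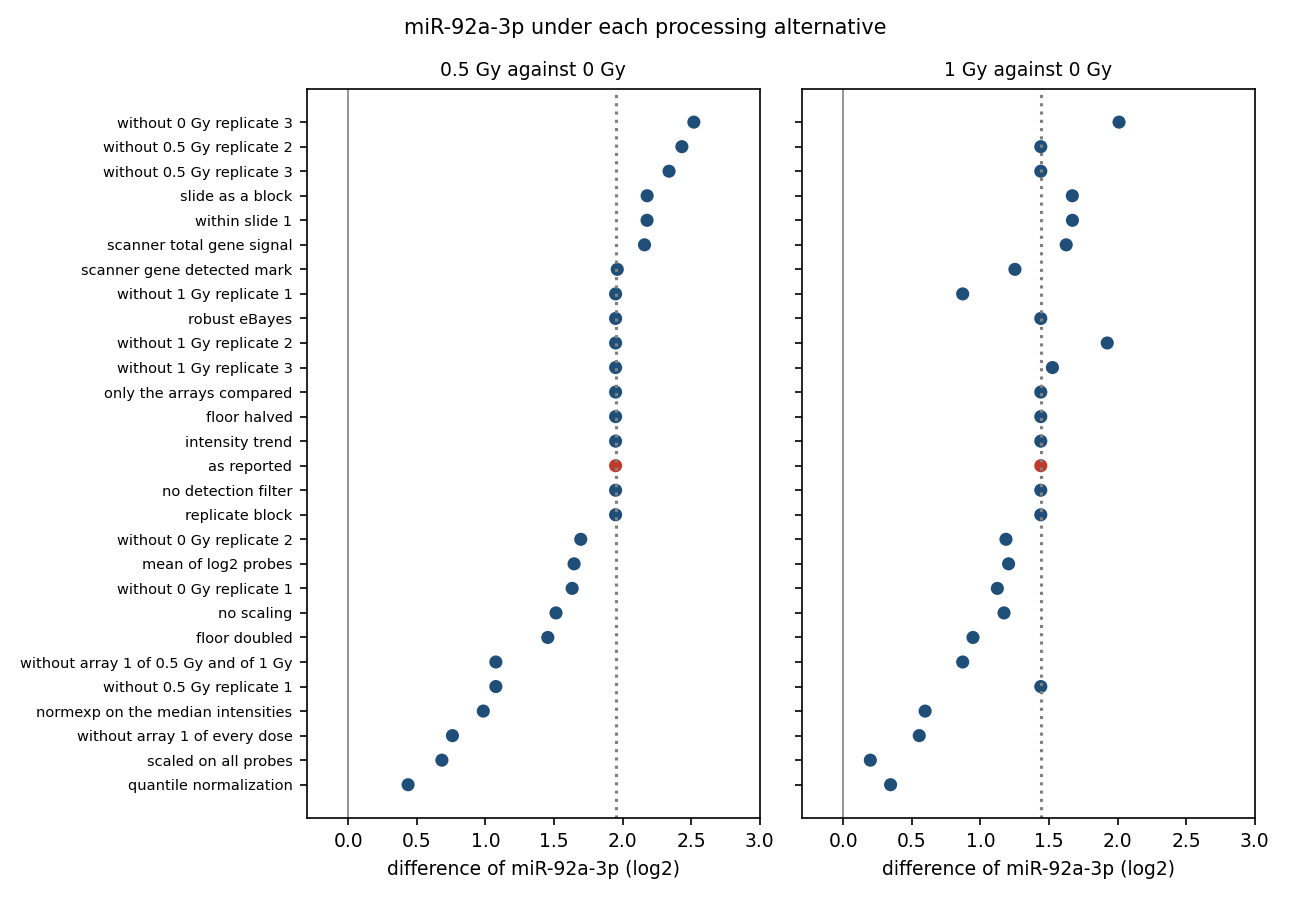
Log2 difference of miR-92a-3p from 0 Gy at 0.5 Gy and at 1 Gy (x axis) under the processing used here and under each alternative (rows). The differences lie between 0.44 and 2.52 at 0.5 Gy and between 0.20 and 2.01 at 1 Gy, all above 0 and none past the threshold. Some rows could not move the difference and repeat the value of the processing used here.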

How the data were processed

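The deposited files hold spot intensity values of 1 array each, written by Feature Extraction 11.5.1.1 (Agilent). The headers of the deposited files say that the processed intensity was background-subtracted, with no normalization across arrays. A whole-series table with 9 value columns was not used, because their names match no sample title. The files name no genome coordinates used here.

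Spots marked as outliers (1358 to 1661 of the 56430 miRNA spots per array) were left out, and 0 were saturated. Processed intensities were averaged per probe, scaled per array (75th percentile of the 45 probes that every array detected), summed per miRNA, raised to a floor of 11.5 scaled units and taken to log2. Tests used limma 3.58.1 (lmFit, eBayes) in R 4.3.3, two-sided. Benjamini-Hochberg adjustment was over the 134 miRNAs that passed the filter (detection on every array of any dose). The limma step alone was tested, on simulated log2 values that varied less than those of miR-92a-3p here. Normexp used median spot intensities, since no mean column is in the files used here. With 3 arrays per dose, their number limits the precision.

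The text names all 9 members, detected relatives and the 5 tested miRNAs most correlated with miR-92a-3p. Members, lists and alternatives were chosen with earlier results of these data known. Deviations from dose means correlated between same-numbered arrays of 0.5 and 1 Gy (r 0.59 to 0.84, 3 pairs), which met the limit of 0.1 set for using the number as a block. Arrays 2 and 3 of these doses correlated nearly as well across numbers (r 0.55 and 0.58), so the pattern is array 1 apart from the rest, and the labels state no pairing. With 0 Gy, r was -0.13 to 0.16. The pairing changed no member's call.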

Additional observations from a re-analysis of the deposited data

How the results depend on the processing

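No member was called under any of the alternatives run, with or without the detection filter. For miR-92a-3p, the 27 alternatives kept the direction at both doses against 0 Gy, with differences of 0.44 to 2.52 at 0.5 Gy, 0.20 to 2.01 at 1 Gy and 0.39 to 2.27 for both doses. Some alternatives could not move the difference. Among them were those that altered only the estimate of error, and those that left out arrays of the irradiated dose not compared. Leaving out each replicate in turn gave 1.08 to 2.52, 0.87 to 2.01 and 1.26 to 2.27, and for 1 Gy against 0.5 Gy -1.08 to 0.36, the last a change of sign without array 1 of 0.5 Gy. For miR-93-5p, near the floor, the sign turned to -0.034 at 0.5 Gy and -0.066 at 1 Gy with slide as a block, to -0.16 at 1 Gy within slide 1, and to -0.049 at 0.5 Gy without replicate 3 of 0.5 Gy and -0.060 at 1 Gy without replicate 2 of 1 Gy. Leaving out each replicate in turn gave -0.049 to 0.33 at 0.5 Gy and -0.060 to 0.30 at 1 Gy, and the cause was not tested. Each replicate number occurs in every dose, so a block of replicate numbers could not move the miR-92a-3p differences of 1.95, 1.44, -0.51 and 1.69. With that block, limma adjusted p was 0.450 and 0.445 for the doses and 0.350 for both. Fits of the 0.5 and 1 Gy arrays alone were added after seeing the data and tested the 40 miRNAs that passed the filter there. Of these, 3 were called with the replicate block and 0 without it, miR-92a-3p in neither (limma adjusted p = 0.568 and 0.981). Requiring detection on all arrays left out miR-92a-3p, so it has no value there. The ratio of miR-92a-3p to each cluster mate was not run, as no mate in its cluster was detected. High background on 2 arrays limits what the levels of 0.5 and 1 Gy can show, and signal near the detection limit leaves the 6 unseen members with a bound alone.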
